A study of Mus musculus with 6 samples.

Results

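The 36 genes described here encode the enzymes by which a cell makes purine nucleotides, pyrimidine nucleotides and deoxynucleotides, by new synthesis and by salvage. They were listed by their known role in these pathways, with earlier results of these data known though with no measured value in the rule, and all 36 were among the 15474 genes with enough counts for a test, out of 25690 gene symbols in all. RNA had been sequenced from BM CD27SP NK cells, which carry NK1.1 and CD27 but not CD11b and stand early in NK cell maturation. The cells came from Ncr1cre Myc fl/fl mice and from their controls, Ncr1cre Myc wt/wt, and each genotype has 3 libraries, numbered 1, 2 and 4. Mice of both genotypes carry the Ncr1cre allele, with which the Cre recombinase is made in cells that express NKp46, they had been backcrossed on C57BL/6, and they were matched for sex and age. In Ncr1cre Myc fl/fl mice both Myc alleles are flanked by loxP sites, and since Cre expression has only recently begun in CD27SP cells, cells that have not yet lost Myc can be among those sequenced. The labels do not tie the libraries to individual mice, so the p-values measure the spread between these libraries.

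Purine nucleotides are built stepwise on an activated ribose, phosphoribosyl pyrophosphate (PRPP), up to inosine monophosphate (IMP), which is then turned into AMP or GMP. The pyrimidine ring is made first and joined to PRPP afterwards, giving UMP and then CTP, while salvage enzymes recover bases and nucleosides for both families. Ribonucleotide reductase makes deoxynucleotides from the ribonucleotides, and a short series of enzymes supplies thymidylate for DNA. Lymphocytes that begin to divide are known to raise both new synthesis and salvage, and many of these genes are known targets of Myc in dividing cells.

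The estimated counts summed to 8101219 in Ncr1cre Myc wt/wt library 1 and to between 54550907 and 64962491 in the other 5 libraries, so that library 1 holds the fewest counts and weighs on every mean of its genotype. The larger sums lie above the read number per sample that the methods state, and whether they equal the reads sequenced is not known. Values per library are given as counts per Mio (CPM) normalized by TMM, and levels of different genes are compared only as TPM, which is scaled for transcript length. In the order of their numbers, the Ncr1cre Myc wt/wt libraries had 200.5, 183.4 and 164.3 CPM of Myc and the Ncr1cre Myc fl/fl libraries 61.5, 64.6 and 76.5 CPM, a log2 fold change of −1.44 with a standard error (SE) of 0.15 (adjusted p = 0.00189, edgeR). The 11 NK cell markers, with Nkg7 and Gzma the most abundant, were present in every library. Together they reached between 17030 and 18650 TPM in Ncr1cre Myc wt/wt and between 20360 and 21480 TPM in Ncr1cre Myc fl/fl cells. Of the 11, 8 had a positive log2 fold change. Gzma was among the 3 with a negative one, at −0.64 (adjusted p = 0.0564, edgeR), without overlap between genotypes. Cd27, which defines the subset, had between 240.6 and 355.8 TPM and Itgam, the gene of CD11b, between 11.1 and 15.2 TPM over the 6 libraries. Several lists of markers of other BM cells were higher in the Ncr1cre Myc fl/fl libraries. The 7 erythroid genes, with Hba-a2 and Hbb-bs the most abundant, summed to between 143.4 and 905.2 TPM in Ncr1cre Myc wt/wt and between 1825 and 3928 TPM in Ncr1cre Myc fl/fl cells, and 2 of the 7 passed the threshold. For the 6 basophil and mast cell genes, led by Prss34 and Mcpt8, these sums ran from 10.9 to 16.8 and from 149.4 to 435.6 TPM, all 6 past the threshold, and for the 9 granulocyte-monocyte progenitor and neutrophil genes, led by Mpo and Elane, from 72.8 to 153.5 and from 531.3 to 890.5 TPM, 4 past the threshold. Of the monocyte, platelet and plasmacytoid dendritic cell genes 3, 1 and 1 were higher past the threshold, and no B or T cell gene passed it. The 5 B cell genes summed to between 4.35 and 9.30 TPM in Ncr1cre Myc wt/wt and between 13.85 and 16.55 TPM in Ncr1cre Myc fl/fl cells. All 4 of them that were tested had a positive log2 fold change. The 5 T cell genes overlapped in their sum, at 280.2 to 611.3 TPM in Ncr1cre Myc wt/wt and 338.3 to 448.4 TPM in Ncr1cre Myc fl/fl cells, and 3 of them had a negative log2 fold change. The 5 genes of ILC1s, relatives of NK cells, summed to between 101.2 and 155.6 TPM in Ncr1cre Myc wt/wt and between 156.9 and 186.1 TPM in Ncr1cre Myc fl/fl cells, and none passed the threshold in edgeR (2 higher at an unadjusted p below 0.05). Of the 5 genes of mature NK cells, which summed to between 71.3 and 122.9 and between 68.7 and 86.6 TPM, 1 passed it, S1pr5. Its log2 fold change was −1.18 (adjusted p = 0.0054, edgeR), and its CPM values overlapped between genotypes. Of the 5, 3 had a negative and 2 a positive log2 fold change. Cx3cr1, at 0.87 (adjusted p = 0.116, edgeR), was higher in every Ncr1cre Myc fl/fl library. Of the defining markers, Fcgr1 of monocytes and Vpreb1 of B cells were at 0 in every Ncr1cre Myc wt/wt library and no marker was at 0 in every Ncr1cre Myc fl/fl library. The part of these other cells in the values below was not tested, and in such sorted bulk samples fewer cells of a type and less RNA per cell cannot be told apart.

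Most of the nucleotide synthesis genes had lower normalized counts in NK cells of Ncr1cre Myc fl/fl mice than in those of their controls. By edgeR's quasi-likelihood test, 3 of the 36 passed the threshold, an adjusted p under 0.01 together with a log2 fold change of 0.5 or more in size, all 3 of them lower, against 0.872% of all genes tested that were lower past it. They were Atic, Uck2 and Dut, enzymes of IMP synthesis, pyrimidine salvage and dUTP removal. At an adjusted p below 0.05, without a limit on the fold change, 13 members were lower (3.38% of all genes) and 1, Adssl1, was higher (4.45% of all genes). No member was higher past the stricter threshold (1.28% of all genes). With an unadjusted p below 0.05, 22 were lower (10.2% of all genes) and 1 was higher (12.4% of all genes).

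The direction was shared by more members than passed any test. The log2 fold change was negative for 33 of the 36, against 48.5% of all genes, and the median over the members was −0.47, against 0.01 over all genes tested. For 25 members each Ncr1cre Myc fl/fl library lay below all Ncr1cre Myc wt/wt libraries, which was so for 15.1% of all genes. For 1 member every Ncr1cre Myc fl/fl library lay above, against 16.2% of all genes, and for the other 10 the genotypes overlapped. Between libraries of the same number, the median differences were −0.64, −0.38 and −0.33 for numbers 1, 2 and 4, and 26 members were lower in all 3 (21.2% of all genes). Without replicate 1 the median was −0.35 and 29 members had a negative fold change, and no member passed the threshold. None passed without replicate 2 either, and without replicate 4 it was passed by Ctps and Uck2. Over all genes, 10, 47 and 114 were lower past the threshold without replicates 1, 2 and 4, against 135 with all libraries. These fits have 2 libraries per genotype and fewer degrees of freedom. Without the replicate block 5 members were lower past the threshold (1.19% of all genes), and DESeq2 gave 14 lower members (3.54% of all genes) and 1 higher member (4.17% of all genes). In limma-trend 2 members were lower, Atic and Uck2 (0.64% of all genes), and the largest adjusted p of edgeR, DESeq2 and limma-trend left the same 2, with an adjusted p of 0.0117 for Dut.

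**Figure D1:**
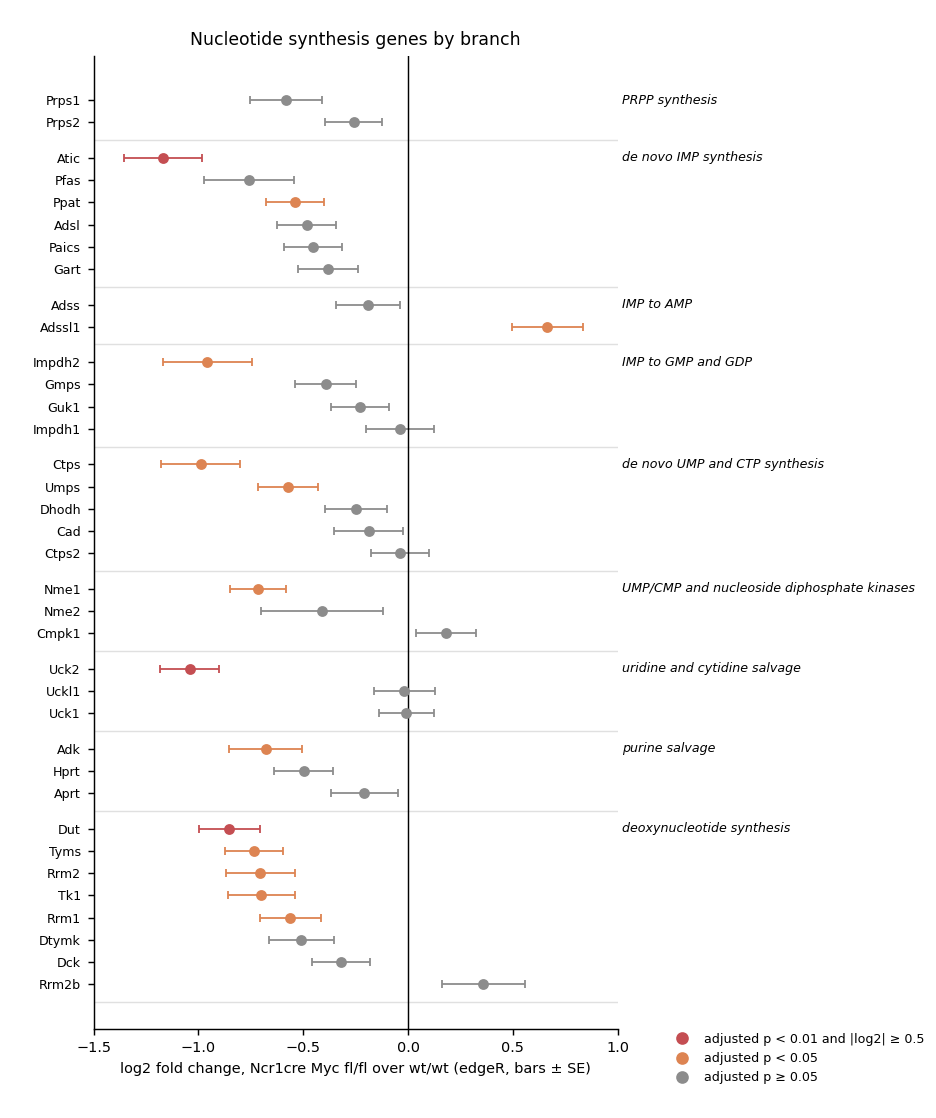
Log2 fold change between genotypes, Ncr1cre Myc fl/fl relative to Ncr1cre Myc wt/wt, for each of the 36 members, in branches of the pathway, with bars of ± 1 standard error from edgeR (3 libraries per genotype). The 3 red points are the members past the threshold, orange points have an adjusted p below 0.05, and 33 of the 36 points lie left of 0.

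Promoter sequence was looked at because members of several branches moved together and because Myc binds the E-box CACGTG, a palindrome that reads the same on both strands. RefSeq windows on GRCm38.p6, 250 bases before to 50 bases after a transcription start, were matched by symbol for 33 of the 36 members, while Dhodh, Pfas and Rrm2b had no entry. The letters CACGTG were present in a window of 6 of the 33 (18.2%), against 8.09% of all 27025 genes with a window and 11.0% of those tested. The 6 were Atic, Paics, Impdh2, Nme1, Tyms and Dtymk. They carried them 7 bases before the start in Atic, 61 in Tyms, 110 in Impdh2, 148 in Dtymk and 203 in Paics, and 18 or 29 in the windows of Nme1. Letters of the E2F site (TTTCCCGC, TTTCGCGC, TTTGCCGC or TTTGGCGC, on either strand) were in windows of 2 of the 33, Ppat and Prps2 (6.06%), against 2.6% of all genes with a window and 4.44% of those tested. In Impdh2, Paics and the Nme1 window with the E-box nearest to its start, the letters lie within annotated exons of these or of neighbouring genes, and in Atic 5 of the 6 letters do. Below are the 250 bases before the start, 5′ to 3′ on the strand of the gene, for the 3 members with an E-box whose stretch holds at most 6 bases of any annotated exon and, for contrast, for Ctps, which holds none. They lie at chr1:71556906-71557155 on the plus strand for Atic and at chr5:30073626-30073875, chr4:120570277-120570526 and chr1:93801935-93802184 on the minus strand for Tyms, Ctps and Dtymk, and capitals mark the E-box.
Atic: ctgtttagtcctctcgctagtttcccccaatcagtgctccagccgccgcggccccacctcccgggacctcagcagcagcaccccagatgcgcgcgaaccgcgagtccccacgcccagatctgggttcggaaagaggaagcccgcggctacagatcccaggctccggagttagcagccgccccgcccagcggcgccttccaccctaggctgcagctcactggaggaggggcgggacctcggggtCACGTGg
Tyms: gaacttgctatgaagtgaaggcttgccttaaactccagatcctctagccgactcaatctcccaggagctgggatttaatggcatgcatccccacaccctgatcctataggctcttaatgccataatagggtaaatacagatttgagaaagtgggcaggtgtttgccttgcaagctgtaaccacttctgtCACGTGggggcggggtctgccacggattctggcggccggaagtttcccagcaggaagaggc
Ctps: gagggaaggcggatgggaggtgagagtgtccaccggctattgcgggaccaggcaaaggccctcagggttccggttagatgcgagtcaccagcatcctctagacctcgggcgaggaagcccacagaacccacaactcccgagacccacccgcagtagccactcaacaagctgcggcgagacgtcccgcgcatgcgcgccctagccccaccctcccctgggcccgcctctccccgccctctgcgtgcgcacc
Dtymk: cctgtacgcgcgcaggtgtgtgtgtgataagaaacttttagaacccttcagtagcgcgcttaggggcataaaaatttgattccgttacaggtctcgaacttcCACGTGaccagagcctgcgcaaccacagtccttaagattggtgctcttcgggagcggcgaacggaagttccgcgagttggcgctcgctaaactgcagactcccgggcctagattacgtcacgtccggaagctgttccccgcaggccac
Among these 4 genes, Atic was past the threshold, Tyms and Ctps had adjusted p-values of 0.0131 and 0.0143, and Dtymk one of 0.078. The other members past the threshold, Uck2 and Dut, held no E-box in their windows. A match of letters is a description of the sequence and does not show binding.

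In the stem of the purine pathway, PRPP synthesis and the steps to IMP, all 8 genes had a negative log2 fold change (48.5% of all genes). In all 8 the genotypes did not overlap, with Ncr1cre Myc fl/fl the lower (15.1% of all genes), and Atic alone passed the threshold. Atic (ENSMUSG00000026192.13, chromosome 1 from 71557150 to 71579631 of GRCm38, plus strand) encodes the bifunctional enzyme that closes the purine ring in the last steps to IMP. It had 45.2, 33.0 and 31.8 CPM in Ncr1cre Myc wt/wt cells, in the order 1, 2 and 4, against 15.4, 17.6 and 15.3 CPM in the Ncr1cre Myc fl/fl libraries, an order kept throughout. The highest Ncr1cre Myc fl/fl library thus stayed below the lowest Ncr1cre Myc wt/wt library, and the spread was widest in Ncr1cre Myc wt/wt cells, where the shallow library was highest. The means were 36.7 ± 7.42 and 16.1 ± 1.31 CPM (SD, n = 3), and Atic fell by 1.17 on the log2 scale (SE 0.18, adjusted p = 0.00677, edgeR). Ppat, the amidotransferase of the committed first step, had 114.2, 92.2 and 94.5 CPM in Ncr1cre Myc wt/wt and 67.9, 71.2 and 66.5 CPM in Ncr1cre Myc fl/fl cells. Its log2 fold change was −0.54 (SE 0.14, adjusted p = 0.0436, edgeR), short of the threshold. Between these ends of the chain, Pfas had a log2 fold change of −0.76, Adsl of −0.48, Paics of −0.45 and Gart of −0.38, with adjusted p-values between 0.0614 and 0.142 in edgeR. Adsl acts a second time on the way from IMP to AMP. Ppat and Paics face each other on opposite strands and overlap by 272 bases, and since the library kit does not mark strand, reads from the overlap cannot be told apart.

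Most of the counts of Atic did not fall on its protein-coding transcript. The 1 protein-coding of its 6 transcripts held 22.9% ± 8.24 of the estimated counts in Ncr1cre Myc wt/wt and 26.2% ± 6.69 in Ncr1cre Myc fl/fl cells (SD, n = 3). The rest was assigned to annotated retained-intron transcripts. With protein-coding transcripts alone, the log2 fold change of Atic was −0.97 with an adjusted p of 0.0642 in edgeR. The direction was kept, and the call was lost. For Uck2 protein-coding transcripts held 72.7% ± 5.71 and 72.6% ± 2.82 of the counts, and for Dut 99.8% ± 0.04 and 99.9% ± 0.01 (SD, n = 3). In the fit of all libraries, little of the difference of Pfas and Gart remained on protein-coding transcripts, with Ncr1cre Myc wt/wt library 1 apart. In that shallow library they held 18.5% of the counts of Pfas, against 48.8% and 45.1% in libraries 2 and 4. For Gart these shares were 30.1%, 68.6% and 68.2%, against 58.9%, 70.4% and 65.8% in Ncr1cre Myc fl/fl cells. Protein-coding transcripts were not fitted without that library. With protein-coding transcripts alone and all libraries, the log2 fold change was −0.16 for Pfas (adjusted p = 0.882, edgeR) and −0.09 for Gart (adjusted p = 0.844, edgeR). Protein-coding transcripts held 37.5% ± 16.6 of the counts of Pfas in Ncr1cre Myc wt/wt and 60.0% ± 19.5 in Ncr1cre Myc fl/fl cells (SD, n = 3).

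Both PRPP synthetase genes belong to the X chromosome. Prps1 had 120.0, 91.0 and 90.5 CPM in Ncr1cre Myc wt/wt and 57.9, 78.2 and 64.7 CPM in Ncr1cre Myc fl/fl libraries, with a log2 fold change of −0.58 (SE 0.17, adjusted p = 0.0709, edgeR), or −0.35 without replicate 1 (adjusted p = 0.27, edgeR). For Prps2 the values were 102.5, 91.0 and 92.3 CPM and 85.9, 84.5 and 69.2 CPM, with a log2 fold change of −0.26 (SE 0.13, adjusted p = 0.299, edgeR). In both genes the lowest Ncr1cre Myc wt/wt library was above the highest Ncr1cre Myc fl/fl library, and neither difference passed the test.

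From IMP, the 4 genes towards GMP had a median log2 fold change of −0.31 and the 2 towards AMP one of 0.24. On the GMP branch Impdh2 (ENSMUSG00000062867.13, chromosome 9 from 108560286 to 108565584), the isoform of IMP dehydrogenase that is known to rise in dividing lymphocytes, had 249.6, 107.0 and 124.5 CPM in Ncr1cre Myc wt/wt and 78.2, 78.9 and 73.0 CPM in Ncr1cre Myc fl/fl libraries. Library 1 of Ncr1cre Myc wt/wt stood far above the others, while the 3 Ncr1cre Myc fl/fl libraries were close together and below all of them. The log2 fold change was −0.96 (SE 0.21, adjusted p = 0.027, edgeR) and, without replicate 1, −0.61 with an adjusted p of 0.0811. Its partner isoform Impdh1 had 153.2, 136.0 and 127.5 CPM against 114.0, 132.2 and 161.6 CPM, overlapping between genotypes, with a log2 fold change of −0.04 (SE 0.16, adjusted p = 0.932, edgeR). Gmps, the GMP synthase, had 200.5, 154.6 and 161.0 CPM against 124.5, 136.4 and 129.3 CPM, which did not overlap, and a log2 fold change of −0.39 (SE 0.15, adjusted p = 0.14, edgeR), or −0.25 without replicate 1. Guk1, which phosphorylates GMP, had a log2 fold change of −0.23 (adjusted p = 0.369, edgeR).

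On the AMP branch the isoforms of adenylosuccinate synthase differed in direction. Adssl1, the form known from muscle, had 16.5, 16.4 and 20.8 CPM in Ncr1cre Myc wt/wt and 24.9, 28.3 and 31.7 CPM in Ncr1cre Myc fl/fl libraries. It was the only member for which every Ncr1cre Myc fl/fl library was the higher, and its log2 fold change of 0.66 (SE 0.17, adjusted p = 0.0426, edgeR) was short of the threshold. Adss, the form of most tissues, had 137.8, 100.2 and 115.0 CPM against 93.9, 103.8 and 109.2 CPM, overlapping, with a log2 fold change of −0.19 (SE 0.15, adjusted p = 0.528, edgeR). The level of Adss stayed the higher, at 55.1 ± 6.64 TPM against 16.4 ± 3.11 TPM of Adssl1 in Ncr1cre Myc wt/wt and 50.3 ± 3.6 TPM against 28.0 ± 3.31 TPM in Ncr1cre Myc fl/fl cells (SD, n = 3).

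The 5 genes of new UMP and CTP synthesis had a median log2 fold change of −0.25. In 3 of them the genotypes did not overlap, with Ncr1cre Myc fl/fl the lower (15.1% of all genes). Cad, the large enzyme of the first 3 steps and a textbook Myc target, had 53.9, 51.6 and 44.1 CPM in Ncr1cre Myc wt/wt and 51.4, 34.6 and 46.7 CPM in Ncr1cre Myc fl/fl libraries. The genotypes overlapped, with a log2 fold change of −0.19 (SE 0.17, adjusted p = 0.567, edgeR). Without replicates 1, 2 and 4 in turn it was −0.25, 0.02 and −0.35. Dhodh, the mitochondrial enzyme of the next step, had a log2 fold change of −0.25 (SE 0.15, adjusted p = 0.366, edgeR). Umps, which attaches the ring to PRPP and yields UMP, had 135.0, 114.5 and 101.4 CPM against 75.3, 80.5 and 78.5 CPM, without overlap, and a log2 fold change of −0.57 (SE 0.14, adjusted p = 0.0417, edgeR).

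Of the isoforms of CTP synthase, Ctps was lower without overlap and Ctps2 overlapped between genotypes. Ctps (ENSMUSG00000028633.7, chromosome 4 from 120539868 to 120570276, minus strand), the isoform on which lymphocyte expansion is known to depend, had 62.1, 42.6 and 40.0 CPM in Ncr1cre Myc wt/wt and 22.1, 23.0 and 26.2 CPM in Ncr1cre Myc fl/fl libraries. No Ncr1cre Myc fl/fl library came near the lowest Ncr1cre Myc wt/wt library, and the log2 fold change was −0.99 (SE 0.19, adjusted p = 0.0143, edgeR), just outside the threshold. Without the replicate block its adjusted p was 0.00977, which passes. Ctps2 had 146.8, 128.4 and 141.4 CPM against 135.4, 146.8 and 124.2 CPM, with a log2 fold change of −0.04 (SE 0.14, adjusted p = 0.922, edgeR). Ctps2 was the more abundant per length, at 158.0 ± 6.46 TPM against 24.4 ± 5.74 TPM of Ctps in Ncr1cre Myc wt/wt and 165.2 ± 14.1 TPM against 12.7 ± 1.01 TPM in Ncr1cre Myc fl/fl cells (SD, n = 3).

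Of the kinases that carry nucleotides to the triphosphate, Nme1 (ENSMUSG00000037601.11, chromosome 11 from 93956979 to 93968521), a nucleoside diphosphate kinase, had 180.1, 252.4 and 274.0 CPM in Ncr1cre Myc wt/wt and 117.2, 143.7 and 167.0 CPM in Ncr1cre Myc fl/fl libraries. Here library 1 of Ncr1cre Myc wt/wt was the lowest of its genotype and still above all 3 Ncr1cre Myc fl/fl libraries. The log2 fold change was −0.72 (SE 0.13, adjusted p = 0.0118, edgeR). Its neighbour and paralog Nme2 had 9.74, 24.5 and 27.4 CPM against 15.2, 14.6 and 13.8 CPM, and rests on 75 counts in Ncr1cre Myc wt/wt library 1. With that library Nme2 overlapped between genotypes (log2 fold change −0.41, SE 0.29, adjusted p = 0.461, edgeR), and without replicate 1 the log2 fold change was −0.86 with an adjusted p of 0.0548. Gm20390, an annotated gene that spans both Nme1 and Nme2 on the same strand and can share their reads, had 126.7, 124.8 and 131.3 CPM against 61.8, 68.9 and 74.9 CPM and fell by 0.90 on the log2 scale (SE 0.13, adjusted p = 0.00556, edgeR). When the counts of all 3 were summed, an alternative chosen after seeing the data, the log2 fold change was −0.76 (SE 0.13, adjusted p = 0.009, edgeR), past the threshold. Cmpk1, which phosphorylates UMP and CMP, had a log2 fold change of 0.18 (SE 0.14, adjusted p = 0.518, edgeR) and overlapped between genotypes.

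**Figure D2:**
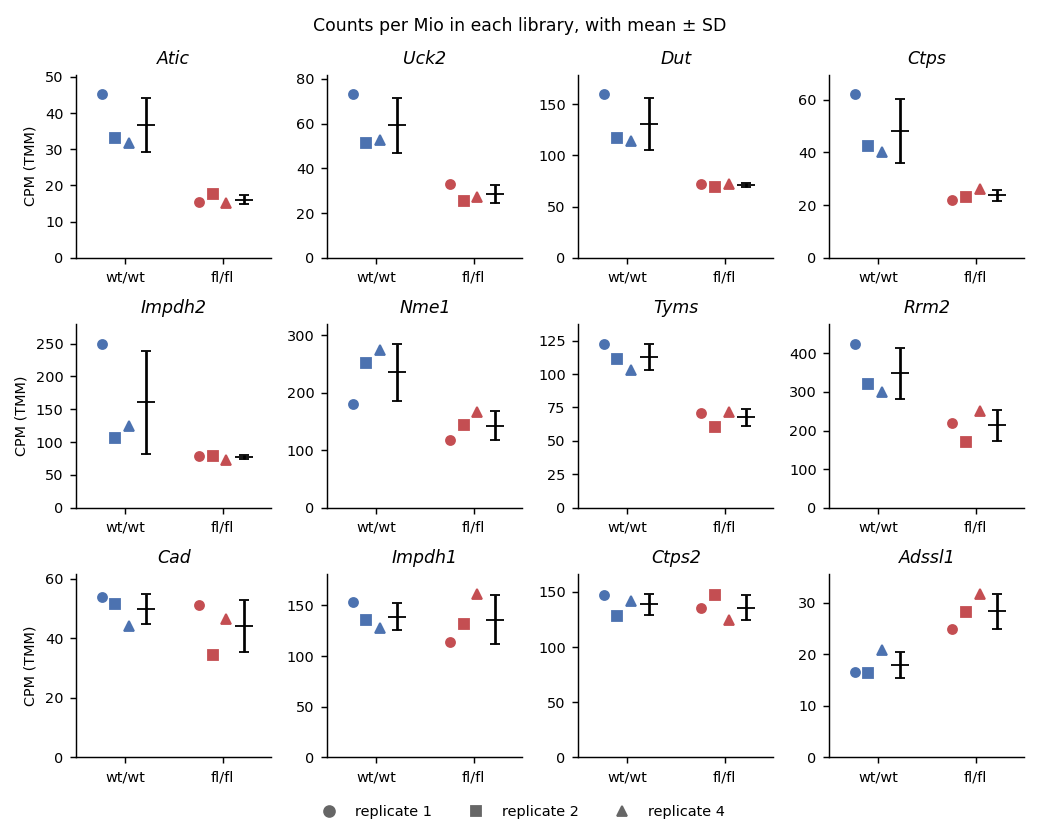
CPM of 12 members in each library of Ncr1cre Myc wt/wt (blue) and Ncr1cre Myc fl/fl (red) cells, each axis from 0, with the mean ± SD of 3 libraries as a black bar and the replicate numbers as symbols. In the panels of Atic to Rrm2 all red points lie below all blue points, in those of Cad, Impdh1 and Ctps2 they mix, and in that of Adssl1 they lie above.

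Of the 3 uridine and cytidine kinases of salvage, 1 passed the threshold, Uck2. Uck2 (ENSMUSG00000026558.13, chromosome 1 from 167222883 to 167285320, minus strand), the isoform of high activity in dividing cells, had 73.1, 51.5 and 52.8 CPM in Ncr1cre Myc wt/wt and 33.2, 25.2 and 27.2 CPM in Ncr1cre Myc fl/fl libraries. All 3 Ncr1cre Myc fl/fl libraries lay well below the Ncr1cre Myc wt/wt libraries, and the differences between libraries of the same number were alike, at −1.14, −1.03 and −0.96. The means were 59.2 ± 12.1 and 28.5 ± 4.14 CPM (SD, n = 3), and Uck2 fell by 1.04 on the log2 scale (SE 0.14, adjusted p = 0.00425, edgeR). Uck1 had 89.4, 98.4 and 92.2 CPM against 81.3, 99.0 and 98.7 CPM, with a log2 fold change of −0.01 (SE 0.13, adjusted p = 0.983, edgeR). Uckl1 had 94.6, 111.7 and 92.8 CPM against 80.0, 106.1 and 110.8 CPM, with a log2 fold change of −0.02 (SE 0.14, adjusted p = 0.968, edgeR). With protein-coding transcripts alone it was 0.63 (adjusted p = 0.435, edgeR). These held 8.2% of the counts of Uckl1 in Ncr1cre Myc wt/wt library 1, and 38.2% and 51.7% in libraries 2 and 4. In Ncr1cre Myc fl/fl cells they held 54.2%, 42.1% and 38.6%, and no such fit without that library was run. In Uck1 and Uckl1 the genotypes overlapped.

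The 3 genes of purine salvage had negative log2 fold changes of different size, and 0 passed the threshold. Hprt, which recovers hypoxanthine and guanine, had the highest mean level per length of all members, with 297.6 ± 18.0 TPM in Ncr1cre Myc wt/wt and 221.5 ± 9.93 TPM in Ncr1cre Myc fl/fl cells (SD, n = 3). In CPM it had 321.3, 264.0 and 305.1 against 204.0, 223.6 and 201.1, without overlap, and a log2 fold change of −0.50 (SE 0.14, adjusted p = 0.0631, edgeR). Adk, the adenosine kinase, had 56.9, 42.7 and 38.0 CPM against 26.8, 29.8 and 27.9 CPM, also without overlap, and a log2 fold change of −0.68 (SE 0.17, adjusted p = 0.043, edgeR). Aprt, which recovers adenine, overlapped between genotypes, with a log2 fold change of −0.21 (adjusted p = 0.504, edgeR), and on the opposite strand it lies within Gm20388.

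The 8 deoxynucleotide genes had a median log2 fold change of −0.63, or −0.52 without replicate 1. Between libraries of the same number their median differences were −0.79, −0.70 and −0.29 for numbers 1, 2 and 4. In 7 of the 8 the 2 genotypes did not overlap, with Ncr1cre Myc fl/fl the lower (15.1% of all genes). Dut (ENSMUSG00000027203.15, chromosome 2 from 125247190 to 125258608, plus strand) encodes the dUTPase that keeps uracil out of DNA and provides dUMP for thymidylate synthesis. It had 159.7, 117.3 and 114.3 CPM in Ncr1cre Myc wt/wt and 72.6, 68.9 and 72.5 CPM in Ncr1cre Myc fl/fl libraries. The Ncr1cre Myc fl/fl libraries were nearly equal and far below the others. The means were 130.4 ± 25.4 and 71.3 ± 2.1 CPM (SD, n = 3), and Dut fell by 0.85 on the log2 scale (SE 0.15, adjusted p = 0.00907, edgeR).

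Tyms, the thymidylate synthase that uses this dUMP, had 122.5, 111.6 and 103.2 CPM in Ncr1cre Myc wt/wt and 71.2, 60.1 and 71.3 CPM in Ncr1cre Myc fl/fl libraries, a log2 fold change of −0.74 (SE 0.14, adjusted p = 0.0131, edgeR). The genotypes were apart by more than the range within either, and without the replicate block the adjusted p of 0.00796 passed the threshold. Of its counts, 32.9% ± 6.77 in Ncr1cre Myc wt/wt and 37.4% ± 3.97 in Ncr1cre Myc fl/fl libraries (SD, n = 3) were on protein-coding transcripts, and with these alone the log2 fold change was −0.55 (adjusted p = 0.0838, edgeR). Of the other enzymes that lead to thymidylate and on to dTTP, Tk1, the thymidine kinase of S phase, had a log2 fold change of −0.70 (adjusted p = 0.0284, edgeR) and Dtymk, the thymidylate kinase, of −0.51 (adjusted p = 0.078, edgeR), or −0.34 without replicate 1. Dck, the salvage kinase of deoxycytidine, had one of −0.32 (adjusted p = 0.202, edgeR).

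Ribonucleotide reductase is built of a large subunit, Rrm1, and of either Rrm2, the small subunit of S phase, or Rrm2b, the small subunit that p53 induces and that serves cells outside S phase. Rrm2 had 424.2, 320.2 and 299.9 CPM in Ncr1cre Myc wt/wt and 218.3, 171.5 and 251.2 CPM in Ncr1cre Myc fl/fl libraries, a log2 fold change of −0.71 (SE 0.17, adjusted p = 0.0321, edgeR). Library 4 of Ncr1cre Myc fl/fl was nearest to the Ncr1cre Myc wt/wt range, yet below it. Rrm1 had a log2 fold change of −0.56 (SE 0.14, adjusted p = 0.0437, edgeR), also without overlap. Rrm2b had 21.6, 17.0 and 19.6 CPM against 34.2, 24.5 and 18.4 CPM, with Ncr1cre Myc fl/fl library 4 inside the Ncr1cre Myc wt/wt range and the other 2 above it (log2 fold change 0.36, SE 0.20, adjusted p = 0.33, edgeR).

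Several steps are served by a pair of isoenzymes, so the log2 ratio of their TPM values, with a pseudocount of 0.1, was compared between genotypes for 7 pairs by a two-sided exact permutation test. With 3 libraries against 3, the exact permutation test cannot go below p = 0.1, and adjusted over the 7 pairs the smallest value is 0.14. In 5 of the 7 pairs the genotypes did not overlap, each with an exact permutation p of 0.1. The log2 ratio of Uck1 to Uck2 was 1.39 higher, that of Impdh1 to Impdh2 0.81 higher, and those of Rrm2 to Rrm2b, Ctps to Ctps2 and Adss to Adssl1 differed by −1.02, −0.97 and −0.90 in Ncr1cre Myc fl/fl cells. For Ctps to Ctps2 the log2 ratios were −2.34, −2.76 and −3.04 in Ncr1cre Myc wt/wt and −3.73, −3.89 and −3.44 in Ncr1cre Myc fl/fl cells, so the libraries formed separate ranges around means of −2.71 ± 0.35 and −3.69 ± 0.22 (SD, n = 3). For Impdh1 to Impdh2 they were −0.89, −0.13 and −0.42 against 0.13, 0.22 and 0.65, so that Impdh2 was the more abundant isoform in each Ncr1cre Myc wt/wt library and Impdh1 in each Ncr1cre Myc fl/fl library. For Uck1 to Uck2 they were −0.59, 0.85 and 0.67 against 1.25, 1.82 and 2.02, with Ncr1cre Myc wt/wt library 1 apart from the other 2 of its genotype. For Rrm2 to Rrm2b, Ncr1cre Myc fl/fl library 4 at 3.31 was the nearest to the Ncr1cre Myc wt/wt range, and the other 2 were at 2.40 and 2.39. The ratios of Prps1 to Prps2 and of Nme1 to Nme2 overlapped, with differences of −0.24 and −0.44 and exact permutation p-values of 0.5 and 0.3, and without replicate 1 these differences were 0.05 and −0.06.

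**Figure D3:**
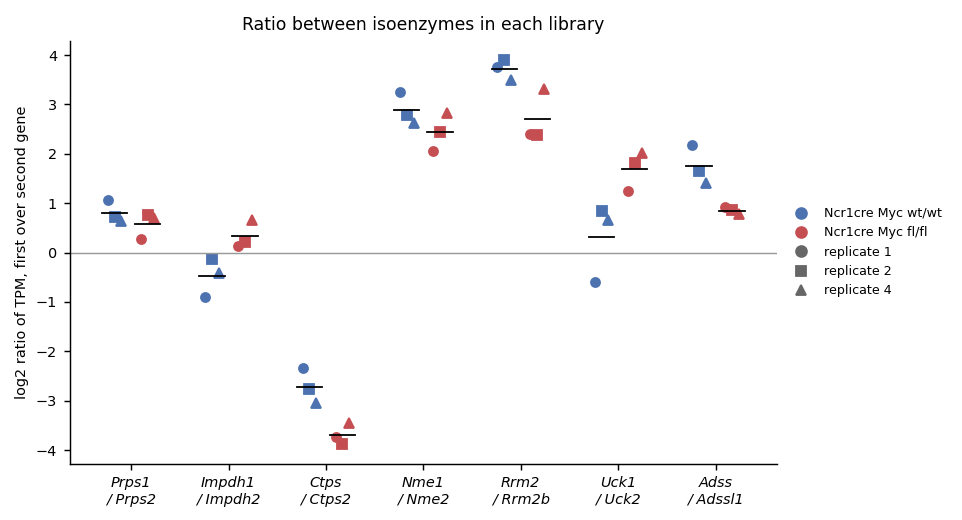
Log2 ratio of the TPM of 2 isoenzymes (first over second gene) in each library of Ncr1cre Myc wt/wt (blue) and Ncr1cre Myc fl/fl (red) cells, with horizontal bars at the mean of 3 libraries. Red and blue points are separate in 5 pairs and overlap in Prps1/Prps2 and Nme1/Nme2.

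Summed over the 36 members, transcript levels were 3652, 3409 and 3247 TPM in Ncr1cre Myc wt/wt and 2502, 2594 and 2740 TPM in Ncr1cre Myc fl/fl cells. The genotypes did not overlap, and the mean of 2612 ± 120.1 TPM was 76.0% of the mean of 3436 ± 203.9 TPM (SD, n = 3), or 80.1% without replicate 1. Deoxynucleotide synthesis held the largest sum, 1073 ± 151.2 TPM in Ncr1cre Myc wt/wt and 704.6 ± 65.3 TPM in Ncr1cre Myc fl/fl cells. This left 65.7% of it, or 70.7% without replicate 1. The steps to IMP had 426.1 ± 22.6 and 318.5 ± 16.9 TPM, and purine salvage 415.5 ± 5.27 and 320.7 ± 13.8 TPM (SD, n = 3), both without overlap. PRPP synthesis, with 103.7 ± 7.78 and 78.1 ± 6.8 TPM, and the GMP branch, with 339.6 ± 70.8 and 267.4 ± 13.4 TPM (SD, n = 3), did not overlap either. The GMP branch stood at 78.8%, and at 91.5% without replicate 1. New synthesis of UMP and CTP, with 279.6 ± 7.18 and 259.9 ± 16.1 TPM, uridine and cytidine salvage, with 290.6 ± 29.6 and 264.0 ± 33.2 TPM, the UMP/CMP and nucleoside diphosphate kinases, with 436.2 ± 79.9 and 320.3 ± 39.4 TPM, and the AMP branch, with 71.6 ± 5.49 and 78.3 ± 6.91 TPM (SD, n = 3), overlapped between genotypes. The sum of uridine and cytidine salvage in Ncr1cre Myc fl/fl cells was 90.9% of that in Ncr1cre Myc wt/wt cells, and 101.1% without replicate 1. For the UMP/CMP and nucleoside diphosphate kinases these shares were 73.4% and 69.5%. In UMP and CTP synthesis and in uridine and cytidine salvage the abundant Ctps2, Uck1 and Uckl1 made up most of the sum, and their levels overlapped between genotypes. The least abundant members per length were Pfas, at 4.02 ± 0.64 and 2.49 ± 0.38 TPM, and Cad, at 10.4 ± 1.05 and 10.7 ± 2.0 TPM (SD, n = 3).

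**Figure D4:**
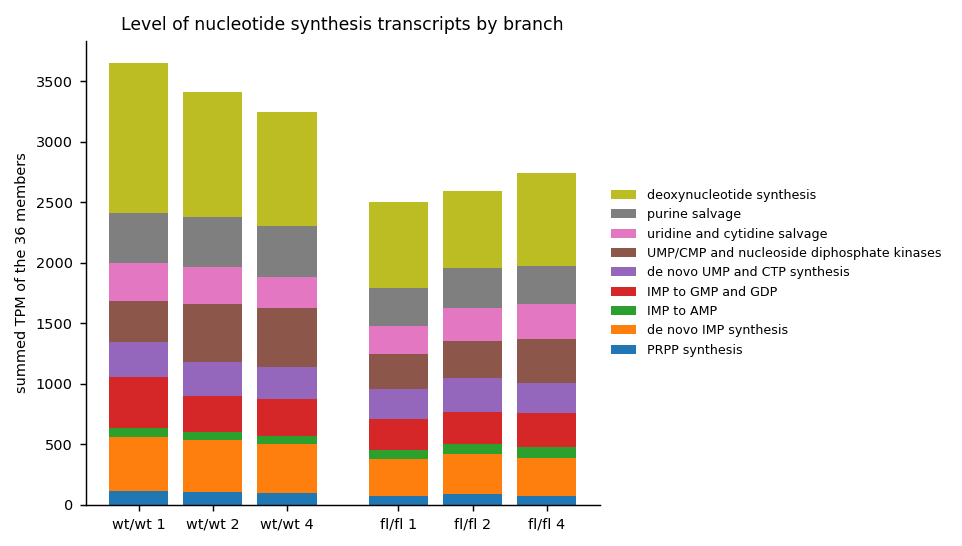
Summed TPM of the 36 members in each library, stacked by branch, with the axis from 0. The 3 Ncr1cre Myc wt/wt bars reach 3247 to 3652 TPM and the 3 Ncr1cre Myc fl/fl bars 2502 to 2740 TPM, and the block of deoxynucleotide synthesis shrinks most in TPM.

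One-carbon metabolism makes serine and the folate-bound units that Gart, Atic and Tyms consume. All 10 genes of that list had a negative log2 fold change (48.5% of all genes), with a median of −0.68, and 4 passed the threshold (0.872% of all genes). Shmt1, the cytosolic serine hydroxymethyltransferase, had 44.8, 53.0 and 46.5 CPM against 18.3, 22.4 and 21.9 CPM and fell by 1.21 on the log2 scale (SE 0.15, adjusted p = 0.00332, edgeR). Psat1 and Phgdh of serine synthesis and Mthfd1, which interconverts folate units, had log2 fold changes of −1.06, −1.06 and −0.83. None of the 4 passed without replicate 1 (adjusted p between 0.0159 and 0.0391, edgeR), without replicate 2 or with effective length offsets, Shmt1 alone did with library size only or protein-coding transcripts only, and in limma-trend Mthfd1 and Phgdh did not (adjusted p = 0.0111 and 0.0119). The 21 genes of DNA replication in S phase all had a negative log2 fold change as well (48.5% of all genes), with a median of −0.58. At an adjusted p below 0.05, 8 of them were lower (3.38% of all genes), and 0 passed the threshold in edgeR. Pola1 and Rfc4 had the smallest p-values among them, with log2 fold changes of −0.81 and −0.76 (adjusted p = 0.0144 and 0.0147, edgeR). Mki67, the gene of the Ki67 antigen of cycling cells, had 285.7, 196.9 and 190.9 CPM against 101.0, 72.9 and 106.5 CPM, a log2 fold change of −1.26 (adjusted p = 0.00348, edgeR). The log2 fold changes of the S phase genes and of Mki67 had the same sign as those of most members. The part of cycling cells in the members' values was not tested.

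Of 18 tested among 26 genes of nucleotide breakdown, 9 had a negative log2 fold change, 0 passed the threshold, and the median was −0.06. Upp1, the uridine phosphorylase, was at 0.13, 0.25 and 0.17 CPM in Ncr1cre Myc wt/wt and at 1.65, 1.41 and 18.0 CPM in Ncr1cre Myc fl/fl libraries, a log2 fold change of 4.60 (adjusted p = 0.0105, edgeR), or 2.78 without replicate 4 (adjusted p = 0.0443, edgeR). Nt5e, the ectonucleotidase CD73, had a log2 fold change of 0.80 (adjusted p = 0.0448, edgeR), or 0.49 without replicate 4 (adjusted p = 0.305, edgeR). Of 21 tested among 22 genes of pool control and other kinases, 15 had a negative log2 fold change with a median of −0.22, and 0 passed the threshold. The smallest p-values were those of Dctpp1, a dCTP pyrophosphatase (−0.69, adjusted p = 0.0488, edgeR), and Dctd, the dCMP deaminase (−0.78, adjusted p = 0.063, edgeR). Of 5 tested among 7 nucleoside transporters, 0 passed the threshold, and the median was −0.61. Slc29a1, the equilibrative transporter through which nucleosides enter for salvage, had 108.7, 111.5 and 105.7 CPM against 72.6, 61.6 and 80.6 CPM, a log2 fold change of −0.61 (adjusted p = 0.0322, edgeR). Its relative Slc29a2, at 1.07 to 3.38 CPM over the 6 libraries, had one of −1.09 (adjusted p = 0.106, edgeR). With an unadjusted p below 0.05, 15 S phase genes were lower, and of the breakdown genes 1 was lower and 5 were higher. By the same limit, 5 pool control genes were lower and 1 was higher, and 3 transporters were lower. Over all genes tested, 10.2% were lower and 12.4% higher at this limit.

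**Figure D5:**
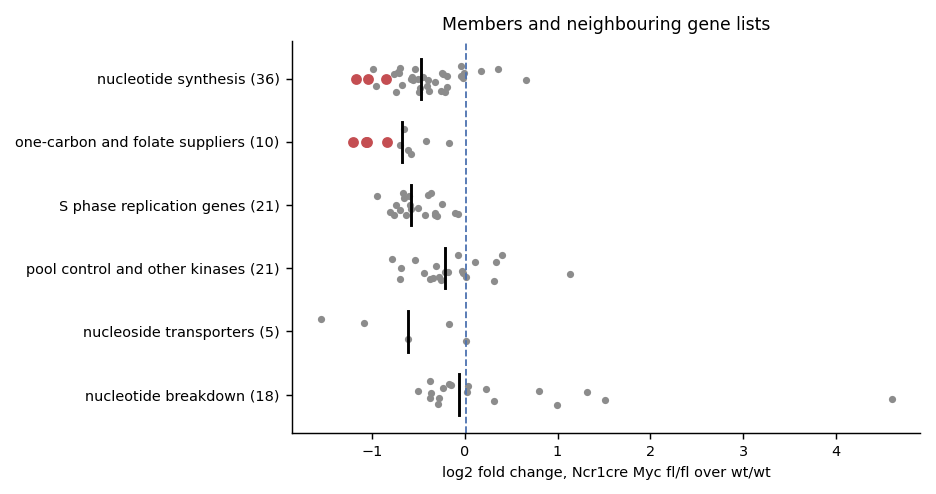
Log2 fold change of every tested gene in the nucleotide synthesis set and in 5 neighbouring lists, with the number of genes in brackets, genes past the threshold in red, a black bar at the median of each list and a dashed line at the median of all genes tested (0.01). The one-carbon list (median −0.68) and the S phase list (median −0.58) lie left of the line entirely, and the breakdown list (median −0.06) lies on both sides, with Upp1 at 4.60.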

How the data were processed

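The authors sorted CD27SP NK cells from BM, prepared SMART-Seq v4 and Nextera XT libraries, sequenced them single end and quantified transcripts. Per the file headers, each of 6 tables gives for 100583 mouse transcripts the deposited estimated count, which is not normalized, the deposited TPM value, scaled to transcript length and library total by the authors, and lengths. The sources name Salmon and GRCh38, whereas the transcript identifiers are of mouse, and the columns are those of kallisto's output.

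Estimated counts were summed by symbol through GENCODE M21 (GRCm38), in which 100239 transcripts were found (unmatched: 0.129% to 0.169% of counts), and rounded. Genes kept by filterByExpr were normalized by TMM and compared by edgeR (4.0.16, R 4.3.3) quasi-likelihood tests with the replicate number as a block, since the paper calls its analysis paired, with Benjamini-Hochberg adjustment over all 15474 genes. The threshold was an adjusted p under 0.01 together with a log2 fold change of 0.5 or more in size. Ratios of isoenzymes were compared by exact permutation tests (scipy 1.17.1). The fit without the block, DESeq2 (1.42.0), limma-trend (3.58.1), other normalizations, filters and left-out libraries were alternatives. Libraries of the same number did not deviate together (correlations −0.012, −0.020 and 0.050 over 15474 genes, limit 0.1), so that pairing of mice by number is not shown. Replicates differed by more than counting noise (chi-square divided by its degrees of freedom, 40.0 to 101.3). On simulated data with the real depths, edgeR with the block recovered 40.3% of 186 genes that had been shifted by 1 on the log2 scale and called 5 unchanged genes. In 5 libraries the estimated counts sum to well above the approximate number of reads that the methods state per sample, so whether these totals are the sequencing depth is not known. The shallowest library, with 8101219 counts, held 75 counts or more of each member.

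The members and lists were chosen with earlier results of these data known. All 36 members are accounted for. Values in every library are given for members past the threshold, the 2 of each branch with the smallest unadjusted p, both genes of each isoenzyme pair and, for comparison, Cad, added after its values were seen. Of the neighbouring lists, genes past the threshold and the 2 with the smallest p are named.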

Additional observations from a re-analysis of the deposited data

How the results depend on the processing

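Of the 36 members, 3 were lower past the threshold with the block. The count was 5 without the replicate block (adding Ctps and Tyms), between 0 and 2 when 1 replicate number was left out, 14 in DESeq2, 2 in limma-trend and by the largest adjusted p of 3 tools (losing Dut), 9 with no filter on low counts, 13 under a limit on the adjusted p alone, 0.05, 1 with protein-coding transcripts only, and 0 with library size only or with effective length offsets. Without the block and without Ncr1cre Myc wt/wt library 1 it was 2 (Atic and Dut), and when any other single library was left out, alternatives chosen after seeing the data, it was 0 in each of the 5 fits, in which 5 to 10 members were lower at an adjusted p below 0.05. Over all genes the lower calls in these 5 fits numbered 6 to 70, and 130 without Ncr1cre Myc wt/wt library 1, against 184 with all libraries and no block. Members higher past the threshold numbered 1 (Adssl1) in DESeq2 and under that limit of 0.05, and 0 otherwise. Over all genes, the lower and higher calls went from 135 and 198 to 548 and 645 in DESeq2, 378 and 524 with no filter, 10 and 49 without replicate 1, 47 and 88 without replicate 2, 114 and 162 without replicate 4, 25 and 49 with library size only, 8 and 24 with effective length offsets, and 51 and 85 with protein-coding transcripts only. The median of the members stayed between −0.53 and −0.35 under all alternatives run, and no member past the threshold changed sign under any of them. The log2 fold change of Myc ranged from −1.62 to −1.30 with 1 replicate number left out, and without replicate 1 its adjusted p in edgeR was 0.0105. The isoenzyme differences with 1 replicate number left out ranged from −0.38 to 0.049 for Prps1/Prps2, from −0.76 to −0.064 for Nme1/Nme2 and from −1.44 to −0.77 for Rrm2/Rrm2b, and the other 4 pairs moved by less than the SD pooled over both genotypes. The cause of these changes was not tested, except that fits with a library left out have fewer samples. Leaving out the replicate block moved the members lower at an adjusted p below 0.05 from 13 to 18 (adding Prps1, Pfas, Paics, Adsl and Hprt) and changed no other call at the stricter threshold.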
